A study of Mus musculus with 14 samples.

Results

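The mitochondrial ribosomal protein genes, named Mrpl for the large subunit and Mrps for the small subunit, were examined in stem cell-enriched mouse bone marrow cells after interleukin-1 beta (IL-1β) or phosphate-buffered saline (PBS). Members were the genes whose symbol starts with Mrpl or Mrps and a digit, without the pseudogene symbols, that had at least 10 counts in at least 3 of 14 libraries. The names of 77 genes matched and 76 of them passed, out of 24833 genes in the table. Mrpl53 was the 1 that did not, with 3 counts over all libraries and at most 1 in any of them. The lowest genes that passed were Mrps36, with 147 to 259 counts per library, and Mrpl23, with 202 to 374. The 4 pseudogene symbols left out reached 26 counts in a library at most, in Mrpl23-ps1. All 76 members were among the 15466 genes tested.

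All mice were of the C57BL/6 strain and received intraperitoneal injections of 0.5 µg per mouse and day of IL-1β, an inflammatory cytokine, or PBS. The groups were IL-1β for 1 day (3 libraries), PBS for 1 day (3), IL-1β for 20 days (4) and PBS for 20 days (4). Each library was made from cells pooled over 3 to 5 mice and sorted from bone marrow with the SLAM scheme (LSK/Flk2-/CD48-/CD150+, where LSK stands for lineage-negative, Sca-1-positive and Kit-positive). By their titles the libraries form 4 naming sets, each balanced for treatment and of a single duration. The E060216 set holds replicates 1 and 2 of the 1-day groups and the 10k set holds replicate 3. The E061316 set holds replicates 1 and 2 of the 20-day groups, and their replicates 3 and 4 bear no tag and are called untagged here. What the tags stand for is not given in the sources used here.

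Mitochondria carry their own ribosome, which translates only the few membrane proteins that mitochondrial DNA encodes. Its rRNAs come from mitochondrial DNA, while all its proteins are encoded in the nucleus, made in the cytosol and imported. A core of these proteins has counterparts in the bacterial ribosome, and proteins found only in mitochondria surround it. Hematopoietic stem cells are known for low mitochondrial respiration at rest and for a switch towards it when they leave quiescence.

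Totals ran from 21654896 to 29441947 counts per library. The sorted cells carried the sort genes, with Kit at 601 CPM (counts scaled to a common library total) or more, Ly6a at 94.08 or more and Slamf1 at 40.42 or more in every library. Summed over 7 genes of the stem cell list, the level was 1172 CPM in the 1-day IL-1β library of the 10k set and 1458 in its PBS library. It was 1318 in 20-day PBS replicate 4, against 1729 to 2601 in the other libraries. Kit was the largest of the 7 in every library. In the 10k libraries all 7 were the lowest of their group, apart from Procr with IL-1β. In 20-day PBS replicate 4, Kit, Slamf1, Mecom, Hlf and Fgd5 were the lowest of their group. Ly6a (146.6 CPM) and Procr (114 CPM) were the highest there. The same 3 libraries drew the largest share of their counts from transcripts under 1500 bases, at 17.5%, 17.1% and 18.5%, against 13.4% to 15.2% elsewhere. In 20-day IL-1β replicate 3, 7 neutrophil genes summed to 1709 CPM, against 1.57 to 7.79 in the other libraries. Erythroid genes summed to 97.1 to 134 CPM in the 20-day IL-1β libraries and 13.0 to 32.4 in the 20-day PBS libraries. At 1 day the sums were 26.2 to 38.8 and 12.1 to 14.7 CPM. Most of each sum came from Hbb-bt, at 94.93 to 132.8 CPM with IL-1β and 7.309 to 22.04 CPM with PBS at 20 days. Hbb-bs went the other way at 20 days, at 0.7781 to 0.9105 CPM with IL-1β and 1.494 to 4.813 CPM with PBS. Hba-a1, Hba-a2, Alas2 and Slc4a1 were at 2.665 CPM or below in every library. The higher sums with IL-1β thus came from Hbb-bt and not from the list as a whole. Macrophage genes summed to 4.27 to 12.2 CPM with IL-1β and 14.1 to 21.2 CPM with PBS at 1 day, without overlap, and to 2.14 to 6.44 and 5.77 to 19.7 CPM at 20 days. Among B, T and NK cell markers, Cd79b and Nkg7 were measured at 34.0 to 92.2 CPM, whereas Cd79a, Ms4a1, Cd3d and Cd3g were at 1.335 CPM or below in every library. Nkg7 had 77.4 to 92.2 CPM with IL-1β and 34.0 to 48.9 CPM with PBS at 20 days. The part of other cells and of transcript length in the results below was not tested beyond the values given beside them.

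Summed over the 76 genes, the mitoribosome took 0.521 ± 0.0429% of all counts after 1 day of IL-1β and 0.467 ± 0.0541% after 1 day of PBS (SD, n = 3 each). By library the shares were 0.501%, 0.492% and 0.570% with IL-1β, against 0.461%, 0.416% and 0.523% with PBS, the 10k library given last. Within each naming set the IL-1β libraries were the higher ones, but the 10k PBS library lay above both E060216 IL-1β libraries, so that the groups overlapped. After 20 days the shares were 0.425 ± 0.0400% with IL-1β and 0.466 ± 0.0627% with PBS (SD, n = 4 each). The 20-day IL-1β libraries held 0.447% and 0.471% in the E061316 set and 0.397% and 0.387% in the untagged set. The PBS libraries held 0.425% and 0.426% in the E061316 set and 0.457% and 0.558% in the untagged set. The 2 sets thus went opposite ways at 20 days: IL-1β above PBS in E061316, and below it in the untagged set. The difference of the means was 0.0543 percentage points at 1 day and -0.0409 at 20 days, and the second shrank to -0.0104 without 20-day PBS replicate 4. Being sums over genes chosen with results known, these shares carry no test. In bulk samples, fewer cells of a type and less RNA per cell cannot be told apart.

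**Figure D1:**
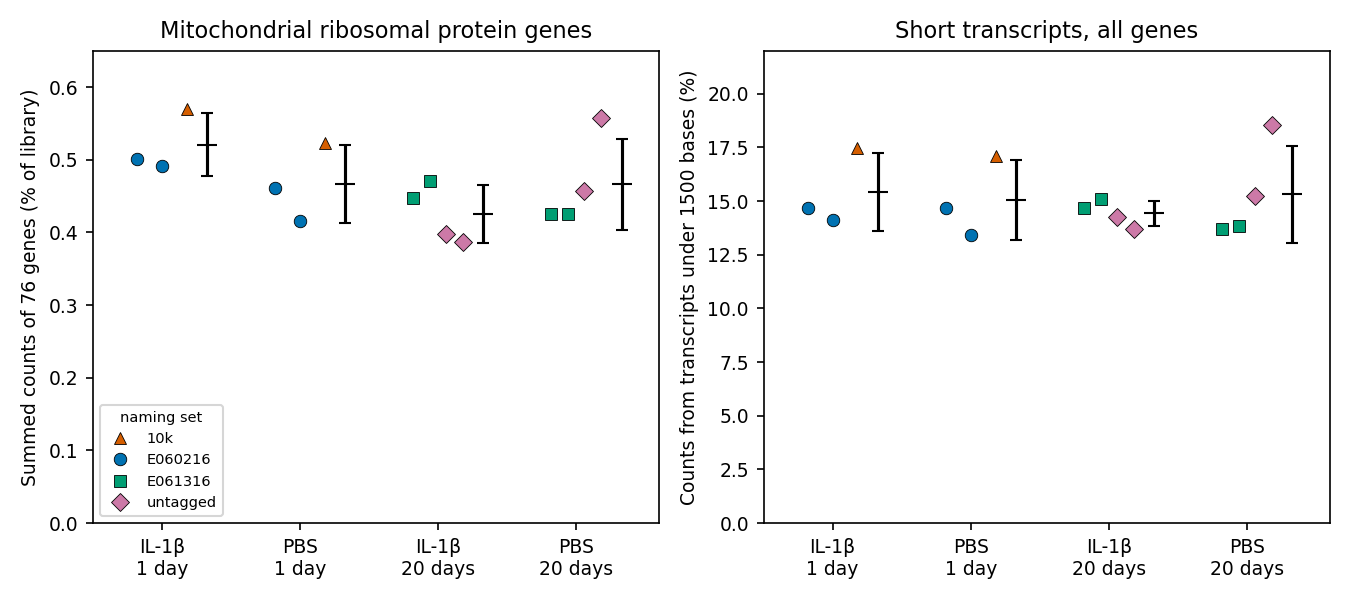
Left, summed counts of the 76 mitochondrial ribosomal protein genes as percent of each library's total; right, percent of counts from transcripts under 1500 bases over all genes. Each point is a library, its marker gives the naming set, and the bars give mean ± SD of each group; 20-day PBS replicate 4 (0.558% and 18.5%) and the 10k libraries are highest in both panels.

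Levels per transcript length were compared in CPM per kilobase of the principal transcript, averaged over all 14 libraries. The median member stood at 42.2 CPM per kb, with 46.0 for the large subunit and 38.4 for the small subunit. Highest were Mrpl42, a mitochondria-specific large-subunit protein, at 165 CPM per kb, Mrpl34, a short protein with a bacterial counterpart, at 128, and Mrpl28 at 124. Lowest were Mrpl47 at 7.38, Mrps25 at 9.89 and Mrps36 at 10.8 CPM per kb, which spans a 22.3-fold range from the top to the bottom of the members. This range depends on the annotated length of each principal transcript. That length is 3364 bases for Mrpl47, 6073 for Mrps25 and 701 for Mrps36, against 666 for Mrpl42, 607 for Mrpl34 and 1068 for Mrpl28. Mrps36 bears a ribosomal name but is a subunit of the 2-oxoglutarate dehydrogenase complex of the citric acid cycle. The libraries are not stranded, so reads of overlapping genes on opposite strands cannot be told apart. This concerns Mrps25, with 69.8% of its exon bases overlapped by Nr2c2, and Mrpl47, with 24.2% overlapped by Actl6a and Ndufb5. Of the members, 22.4% had at least 10% of their exon bases overlapped, against 15.5% of all genes tested with a gene model.

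**Figure D2:**
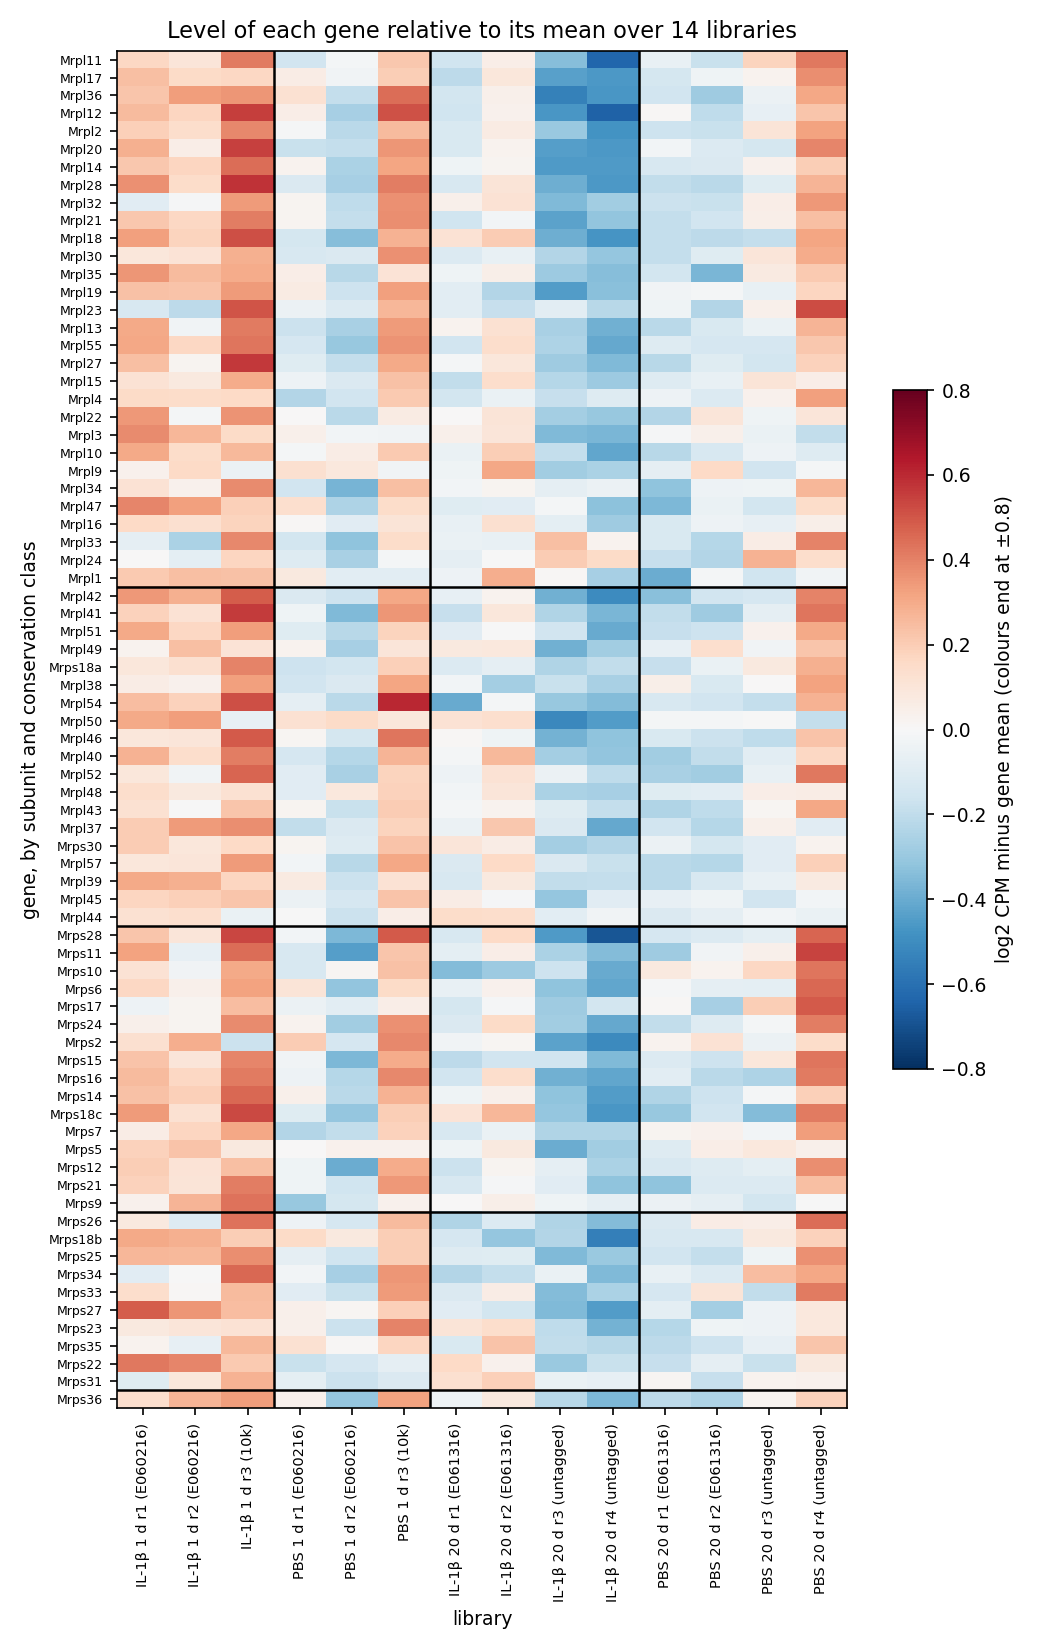
Each row is 1 of the 76 genes and each column a library; colour gives log2 CPM minus the gene's mean over the 14 libraries. Genes are grouped by subunit and conservation class and, within a class, sorted by their change in the untagged set; both untagged 20-day IL-1β libraries are blue in most rows, and the 10k libraries and 20-day PBS replicate 4 are red in most rows.

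The 1-day comparison asks how acute IL-1β changes stem cell expression. Most mitochondrial ribosomal protein genes were slightly higher, but 1 passed the test. Of the 76 genes, 73 had a positive log2 fold change, against 48% of all genes tested, and the median was 0.21, against -0.01 over all genes tested. By edgeR's quasi-likelihood test with Benjamini-Hochberg adjustment, 1 rose and 0 fell at an adjusted p of 0.05, while 2.52% of all genes tested rose and 1.83% fell. An unadjusted p of 0.05 was passed by 12 members that were higher and 0 that were lower, against 9.44% and 9.3% of all genes tested. DESeq2 called 3 higher and 0 lower, and its share over all genes tested is not given here. The medians were 0.21 for the 49 large-subunit and 0.20 for the 26 small-subunit genes.

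The gene that rose was Mrps9, a small-subunit protein with a bacterial counterpart (ENSMUSG00000060679, GRCm38 chromosome 1, 42851233 to 42905683, plus strand). It had 56.9, 67.2 and 75.2 CPM in the IL-1β libraries, against 45.0, 50.4 and 57.1 CPM in the PBS libraries. In each naming set the IL-1β libraries were above the PBS libraries, but the 10k PBS library slightly exceeded the lowest IL-1β library. The log2 fold change was 0.39 ± 0.10 (SE, edgeR adjusted p = 0.0414), and it was 0.38 within E060216 and 0.40 within 10k. This call was close to the threshold. It was lost in 12 of 14 fits that each left out 1 library, with edgeR adjusted p from 0.0160 to 0.194, and held only without 20-day PBS replicate 3 (0.0469) or 4 (0.0160). It was also lost with upper-quartile factors (edgeR adjusted p = 0.0746), without a filter on low counts (0.0858), without the naming set term (0.151), with the replicate block (0.0918) and without the 3 libraries rich in short transcripts (0.0722). At 20 days Mrps9 had 55.7, 57.5, 54.3 and 52.9 CPM with IL-1β and 53.7, 53.0, 50.3 and 55.4 CPM with PBS, with overlapping groups and a log2 fold change of 0.05 ± 0.09.

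Mrps22, a mitochondria-specific small-subunit protein, had 40.6, 39.8 and 35.0 CPM in the 1-day IL-1β libraries, against 26.7, 27.6 and 28.8 CPM in the PBS libraries. The groups did not overlap, and its log2 fold change of 0.47 ± 0.13 was the largest among the members but did not pass the threshold (edgeR adjusted p = 0.0614). It was added to the named genes after its values were seen. In all, 12 members had non-overlapping groups with IL-1β higher at 1 day and 0 had IL-1β lower, while 8.75% and 8.91% of all genes tested did so. No member fell. The 3 with negative values were Mrps2 (-0.07 ± 0.15), Mrps35 (-0.03 ± 0.14) and Mrpl9 (-0.01 ± 0.12), with edgeR adjusted p of 0.872, 0.955 and 0.970. Without 1-day IL-1β replicate 3, the 10k library, Mrps2 had a value of 0.17. The median of all members ranged from 0.13, without 1-day PBS replicate 2, to 0.27, without 1-day IL-1β replicate 3.

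The 20-day comparison asks the same of chronic IL-1β. Most members had slightly lower values after IL-1β, and again 1 passed the test, a different gene. A positive log2 fold change was found for 11 of the 76, against 50% of all genes tested, and the median was -0.14, against -0.000313 over all genes tested. edgeR called 1 member lower and 0 higher at an adjusted p of 0.05, while 3.52% of all genes tested fell and 3.94% rose. The edgeR counts at an unadjusted p of 0.05 were 12 lower and 0 higher, against 10.1% and 10.3% of all genes tested. DESeq2 called 3 members lower and 0 higher. Shares over all genes tested are not given here for DESeq2 or for the alternative fits below. The median was -0.12 for the large subunit and -0.20 for the small subunit. It moved to -0.03 without 20-day PBS replicate 4, to -0.02 without the 3 libraries rich in short transcripts, and to -0.23 without 20-day IL-1β replicate 2. The count of called genes was 3 without 20-day IL-1β replicate 2 and 2 without 20-day PBS replicate 1.

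Mrps10, a small-subunit protein with a bacterial counterpart (ENSMUSG00000034729, GRCm38 chromosome 17, 47368887 to 47381417, plus strand), was the gene that fell. It had 38.2, 39.7, 43.2 and 36.7 CPM in the 20-day IL-1β libraries, against 51.2, 49.5, 54.4 and 65.4 CPM in the 20-day PBS libraries. Every IL-1β library lay below every PBS library. The log2 fold change was -0.48 ± 0.10 (SE, edgeR adjusted p = 0.00914), and the call was kept in all 14 fits that each left out 1 library (edgeR adjusted p from 0.0118 to 0.0342). Without the 3 libraries rich in short transcripts the value was -0.39 (edgeR adjusted p = 0.0228). Within the sets it was -0.37 ± 0.13 in E061316 (edgeR adjusted p = 0.172) and -0.58 ± 0.13 in the untagged set (edgeR adjusted p = 0.0154). After 1 day Mrps10 had 52.6, 47.5 and 59.7 CPM with IL-1β and 44.3, 49.0 and 57.0 CPM with PBS. Those groups overlapped, with a log2 fold change of 0.09 ± 0.11 (edgeR adjusted p = 0.750).

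Groups did not overlap at 20 days for 4 of the 76 members, all with IL-1β lower. For IL-1β lower this was close to the share of all genes tested, 4.99%, while 5.39% of all genes tested had it higher. The 4 members were Mrps10, Mrps7, Mrpl19 and, outside the naming rule, Mrps18b (-0.30 ± 0.13, edgeR adjusted p = 0.189). Mrps7, which belongs to the head of the small subunit, had 82.5, 87.0, 76.5 and 76.5 CPM with IL-1β, against 91.7, 92.4, 89.2 and 114 CPM with PBS. Its log2 fold change was -0.26 ± 0.09 (edgeR adjusted p = 0.117). Mrpl19, a large-subunit protein with a bacterial counterpart, had 63.0, 56.8, 49.1 and 53.0 CPM with IL-1β, against 65.6, 66.0, 64.1 and 75.3 CPM with PBS (-0.29 ± 0.10, edgeR adjusted p = 0.0954). In both genes PBS replicate 4 was the highest library. Gcfc2 on the other strand overlaps 36.0% of the exon bases of Mrpl19. No member rose at 20 days. The positive values with the smallest p were those of Mrpl1 (0.15 ± 0.12), Mrpl44 (0.11 ± 0.09) and Mrpl24 (0.07 ± 0.08), with edgeR adjusted p of 0.552, 0.553 and 0.719.

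**Figure D3:**
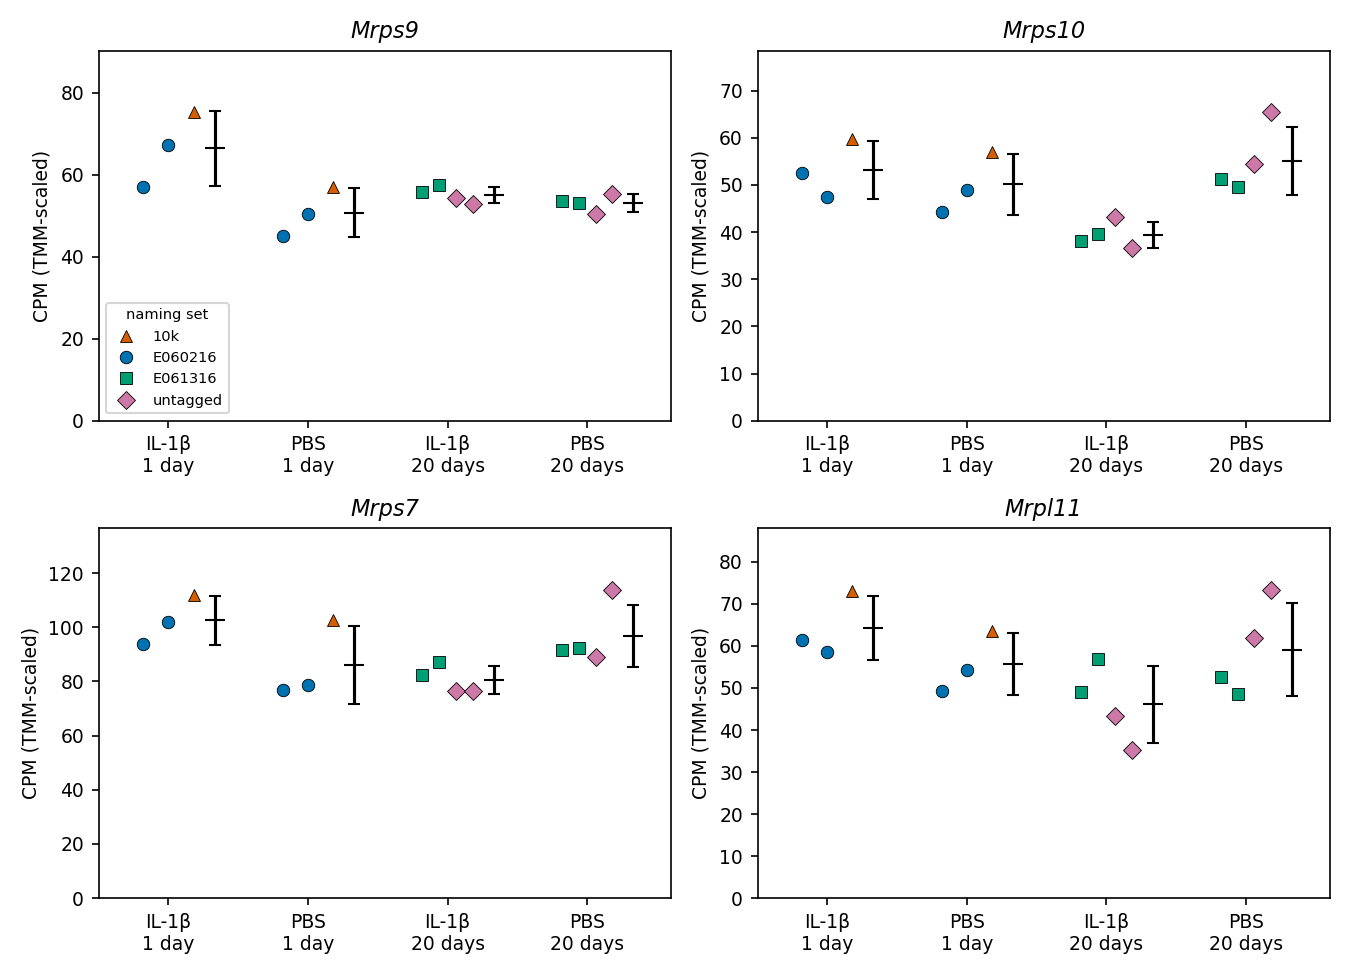
CPM, scaled by TMM (trimmed mean of M-values) factors, of Mrps9, Mrps10, Mrps7 and Mrpl11 in each library, with mean ± SD per group and a marker for the naming set. The 20-day IL-1β libraries of Mrps10 (36.7 to 43.2 CPM) all lie below the PBS libraries (49.5 to 65.4 CPM), and Mrpl11 is low in the untagged IL-1β libraries only.

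Whether the response differed with duration was tested as the 20-day effect minus the 1-day effect in the same fit. This difference was negative for 74 of the 76 genes, with a median of -0.36, against 0.02 over all genes tested, 51.4% of which were positive. edgeR called 0 members in either direction, while 0.989% of all genes tested were lower and 1.15% higher. Unadjusted, 26 members were lower and 0 higher at a p of 0.05 in edgeR, against 9.54% and 8.84% of all genes tested. DESeq2 called 4 members lower and 0 higher. Shares over all genes tested are not given here for DESeq2 or for the alternative fits below. The smallest p-values were those of Mrps10 (-0.57 ± 0.15, edgeR adjusted p = 0.0647), Mrps7 (-0.53 ± 0.14, 0.0718), Mrpl19 (-0.48 ± 0.15, 0.112) and Mrps15 (-0.55 ± 0.18, 0.124). The last, a small-subunit protein of the ribosomal platform region, had 109, 99.0 and 122 CPM with IL-1β and 90.9, 72.3 and 114 CPM with PBS at 1 day. After 20 days Mrps15 had 80.2, 83.4, 83.0 and 72.4 CPM with IL-1β and 86.0, 82.7, 98.6 and 125 CPM with PBS, with overlapping groups at both durations. The median difference was -0.28 without 20-day PBS replicate 4 and -0.31 without the 3 libraries rich in short transcripts, and in each of these fits 1 member was called, as it was without 20-day IL-1β replicate 2.

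Split by naming set, most members had lower values with IL-1β in the untagged set and higher values in the other sets. In a fit of each treatment within each set, the median log2 fold change was 0.07 in 10k, 0.27 in E060216, 0.12 in E061316 and -0.40 in the untagged set. Over all genes tested the medians were -0.01, -0.02, 0.0012 and 0.02. Positive values numbered 60, 73, 63 and 1 of the 76 genes, while 48.6%, 48.2%, 50.2% and 52.2% of all genes tested had one. The 10k values come from 1 library against 1 and are a description without a test. In 58 members both 1-day sets were positive. At 20 days, 62 members were positive in E061316 and negative in the untagged set, 13 were negative in both, and 1, Mrps9, was positive in both.

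**Figure D4:**
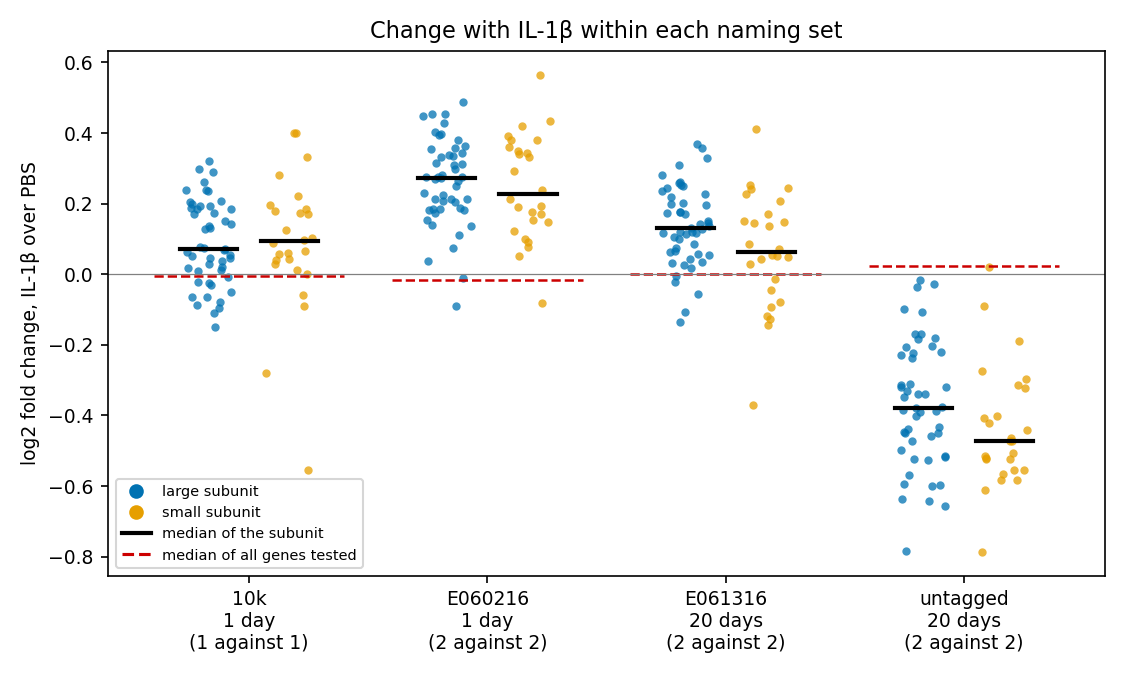
Log2 fold change of IL-1β over PBS for the 49 large-subunit and 26 small-subunit genes within each naming set (Mrps36 is not drawn); black bars are subunit medians and the dashed red line is the median of all genes tested. The untagged points lie at or below 0 apart from Mrps9 (0.02), and the other sets have medians above 0.

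Within E060216, 1 member rose, Mrps22 (0.57 ± 0.14, edgeR adjusted p = 0.0262), and 0 fell, while 4.74% of all genes tested rose and 2.71% fell. Unadjusted, 31 were higher and 0 lower at a p of 0.05 in edgeR, against 12.3% and 10.3% of all genes tested. DESeq2 called 10 members higher and 0 lower, and its share over all genes tested is not given here. The edgeR count varied with libraries of other sets left out, and the shares of all genes tested called in those fits are not given here. It was 16 without 20-day PBS replicate 3, 17 without 20-day PBS replicate 4 and 12 without the 3 libraries rich in short transcripts. It was 0 without 1-day IL-1β replicate 1 or 2, 1-day PBS replicate 1 or 2, 20-day IL-1β replicate 3 or 4, or 20-day PBS replicate 1. IL-1β libraries lay above PBS libraries without overlap in 61 members and below in 1, Mrpl23, against 28.4% and 27.7% of all genes tested. The E060216 effect minus the 10k effect was tested under the assumption that each lone 10k library varies like the other libraries, which its own arm cannot check. It had a median of 0.19 and was positive for 64 members, against 54.5% of all genes tested. edgeR and DESeq2 called 0 members, and edgeR called 0% of all genes tested. At an unadjusted p of 0.05, 1 member was higher and 0 lower, against 4.77% and 5.44% of all genes tested. The smallest p-values in that difference belonged to Mrps2 (0.72), Mrpl4 (0.39), Mrps23 (0.43) and Mrpl50 (0.33).

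Within E061316, edgeR and DESeq2 called 0 members, while 1.3% of all genes tested rose and 1.57% fell by edgeR. At an unadjusted p of 0.05, 4 members were higher and 1 lower, against 8.33% and 8.67% of all genes tested, and edgeR called 1 higher without 20-day PBS replicate 3. Non-overlapping libraries with IL-1β higher were seen in 37 members and with IL-1β lower in 6, against 26.2% and 24.7% of all genes tested.

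Within the untagged set, 30 of the 76 members fell and 0 rose, while 7.1% of all genes tested fell and 5.7% rose. Of these 30, 18 belong to the large and 12 to the small subunit. The unadjusted edgeR counts at a p of 0.05 were 52 lower and 0 higher, against 13.8% and 13.5% of all genes tested. DESeq2 called 40 members lower and 0 higher, and its share over all genes tested is not given here. Both IL-1β libraries lay below both PBS libraries in 64 members and above them in 0, against 25.9% and 26.7% of all genes tested. The edgeR count of 30 depended on single libraries, and the shares of all genes tested called without them are not given here. It was 4 without PBS replicate 4, 5 without IL-1β replicate 3, the library with neutrophil RNA, and 0 without IL-1β replicate 4, and it was 47 without PBS replicate 3. Without the 3 libraries rich in short transcripts it was 2, with a median of -0.24. Where 1 library is left in an arm, it is assumed to vary like the other groups. Within E061316, 24 of the 30 had a positive value and 6 a negative one.

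The largest decrease among these 30 was that of Mrps28, at -0.79 ± 0.19 (edgeR adjusted p = 0.0177), a gene named after its values were seen. Mrpl11, which forms the base of the stalk where translation factors bind, was nearest to it at -0.78 ± 0.14 (edgeR adjusted p = 0.00539). Mrpl11 had 43.3 and 35.3 CPM in the untagged IL-1β libraries, against 61.9 and 73.4 CPM in the untagged PBS libraries. In E061316 it had 49.0 and 56.8 CPM with IL-1β, against 52.6 and 48.5 CPM with PBS. The IL-1β libraries of the untagged set were thus the lowest of all for this gene, and the E061316 libraries overlapped. Mrpl2, a protein of the large-subunit core, had 57.4 and 50.7 CPM with IL-1β and 75.7 and 88.2 CPM with PBS in the untagged set, against 64.8 and 73.6 CPM with IL-1β and 62.9 and 62.3 CPM with PBS in E061316. Mrps14, of the small-subunit head, had 90.5 and 83.0 CPM with IL-1β and 112 and 129 CPM with PBS in the untagged set, against 110 and 116 CPM with IL-1β and 95.6 and 101 CPM with PBS in E061316. In Mrpl2 and Mrps14 the sets went opposite ways without overlap in either set. Mrpl18, which has a bacterial counterpart that binds 5S rRNA, had 73.0 and 68.9 CPM with IL-1β and 83.8 and 119 CPM with PBS in the untagged set, and 104 and 110 CPM with IL-1β and 83.9 and 82.7 CPM with PBS in E061316.

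The difference between these sets was itself tested. The untagged effect minus the E061316 effect was negative for all 76 members, with a median of -0.48 against 0.03 over all genes tested, 52.2% of which were positive. edgeR called 0 members, while 0.0776% of all genes tested were lower and 0.0905% higher. Unadjusted, 47 members were lower and 0 higher at a p of 0.05 in edgeR, against 10% and 8.71% of all genes tested. DESeq2 called 23 members lower and 0 higher. Shares over all genes tested are not given here for DESeq2 or for the alternative fits below. The 4 with the smallest p-values were Mrpl11 (-0.85 ± 0.20, edgeR adjusted p = 0.0605), Mrpl2 (-0.75 ± 0.17, 0.0607), Mrps14 (-0.68 ± 0.16, 0.0607) and Mrpl18 (-0.87 ± 0.20, 0.0608). Without a filter on low counts edgeR called 8, and without 20-day PBS replicate 3 it called 39. In the other 13 fits that each left out 1 library it called 0. The median was -0.33 without 20-day PBS replicate 4 and -0.31 after the length trend of each library was removed.

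Transcript length and GC content both moved with these library differences. The members have short mRNAs, with a median of 1302 bases against 2773 over all genes tested with a length, while median GC content was alike at 50.4% and 50.1%. In 20-day PBS replicate 4, members stood a median of 0.35 on the log2 scale above the mean of PBS replicates 1 to 3, with 74 of 76 higher. The median was 0.40 for the 46 members under 1500 bases and 0.21 for the other 30. Over all genes tested the corresponding medians were 0.35 and -0.09, and Spearman's rho with length was -0.43 across the 76 members and -0.42 across 15063 genes, which share these libraries. The 10k PBS library stood a median of 0.36 above the E060216 PBS libraries (rho with length -0.52 across members), and the 10k IL-1β library 0.20 above its E060216 counterparts (rho -0.48). For these differences, in the order given, Spearman's rho with GC content was 0.187, 0.48 and 0.378 across members. Across 15063 genes it was 0.28, 0.298 and 0.285. For the IL-1β effect itself, members under and over 1500 bases had medians of 0.22 and 0.17 at 1 day, and -0.16 and -0.13 at 20 days. Members longer than 1500 bases in the untagged set had a median of -0.40, against 0.07 for all genes tested of that length. For shorter ones it was -0.42, against -0.22.

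**Figure D5:**
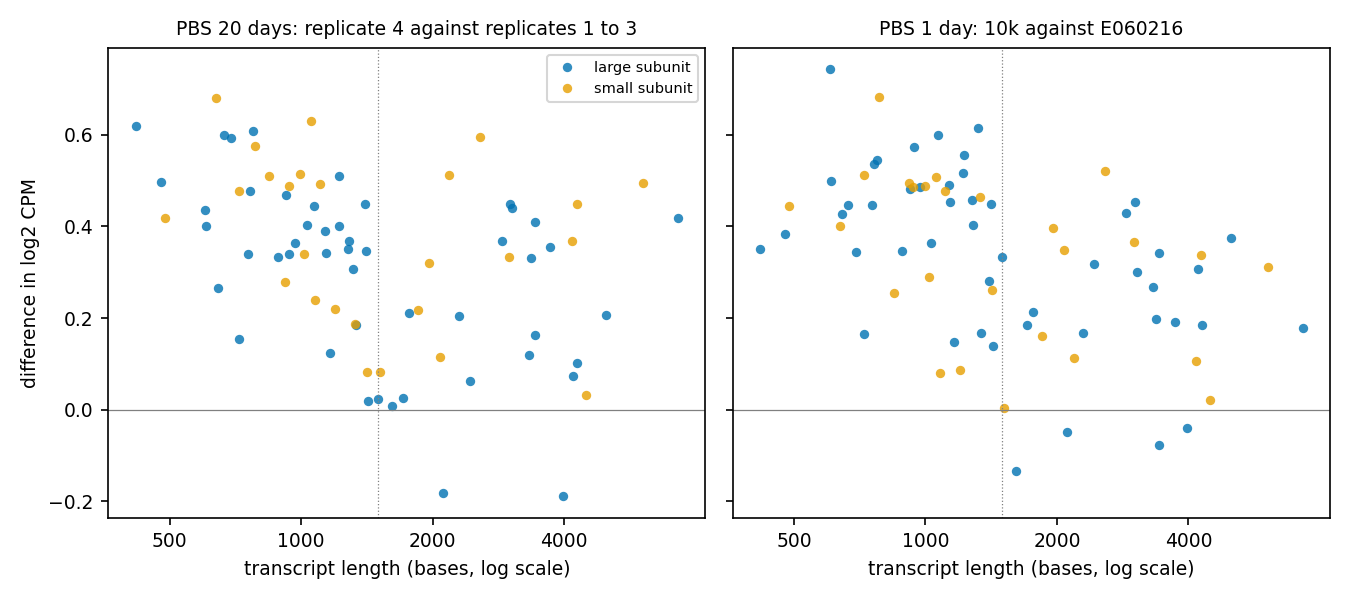
Difference in log2 CPM between libraries of the same treatment against principal transcript length (log scale) for large- and small-subunit genes, with a dotted line at 1500 bases. Left, 20-day PBS replicate 4 against replicates 1 to 3 (median 0.35); right, the 10k PBS library against the E060216 PBS libraries (median 0.36); most points are above 0 and the short transcripts are the highest.

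None of the genes followed for their place in the complex passed the threshold at either duration (edgeR adjusted p of at least 0.242). Mrpl12, the stalk protein that recruits translation factors and also binds mitochondrial RNA polymerase, had 70.4, 66.4 and 86.6 CPM with IL-1β and 61.2, 49.0 and 83.9 CPM with PBS at 1 day. At 20 days it had 52.8, 60.5, 42.8 and 37.6 CPM with IL-1β and 59.3, 51.2, 56.3 and 68.7 CPM with PBS (-0.30 ± 0.14, edgeR adjusted p = 0.242). Its groups overlapped at both durations, and it was among the 30 that fell in the untagged set (-0.64 ± 0.15, edgeR adjusted p = 0.0172). Mrps12, whose bacterial counterpart acts in decoding accuracy, had values of 0.22 ± 0.15 and -0.14 ± 0.13 at 1 and 20 days. Its gene start lies within 1000 bases of that of Sars2 on the other strand. Mrps30 (0.10 ± 0.11 and -0.02 ± 0.10) and Mrps18a (0.24 ± 0.11 and -0.19 ± 0.10) carry small-subunit names but sit in the large subunit. Mrpl33 (0.13 ± 0.12 and 0.01 ± 0.10) and Mrpl41 (0.29 ± 0.17 and -0.15 ± 0.15) are proteins of the large subunit, and Mrps36 had 0.22 ± 0.20 and -0.07 ± 0.18. Direction at 20 days was not stable for several: without 20-day PBS replicate 4, values were 0.11 for Mrpl18, 0.04 for Mrps30, 0.02 for Mrps36 and 0.02 for Mrpl41.

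Mitoribosome proteins with other names gave similar values. None of the 6 measured passed at either duration, with medians of 0.19 at 1 day and -0.12 at 20 days. Dap3, a GTP-binding small-subunit protein, had 0.17 ± 0.11 and -0.13 ± 0.09. Ict1, the name under which the table lists the peptidyl-tRNA hydrolase built into the large subunit (Mrpl58), had 0.30 ± 0.14 and -0.04 ± 0.12. Of the 6, 1 fell in the untagged set, where 7.1% of all genes tested fell. It was Chchd1 (-0.68 ± 0.18, edgeR adjusted p = 0.0269), which was named after its value was seen.

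Other genes of mitochondrial translation were described from lists chosen with earlier results known. Of 17 mitochondrial tRNA synthetases, which charge tRNAs for the mitoribosome, 2 rose and 0 fell at 1 day (median 0.20), against 2.52% and 1.83% of all genes tested. Sars2, which charges tRNA with serine, had 42.7, 41.3 and 51.9 CPM with IL-1β, against 29.3, 30.5 and 32.4 CPM with PBS (0.55 ± 0.12, edgeR adjusted p = 0.0199). In Sars2 no IL-1β library overlapped a PBS library. At 20 days 1 synthetase rose and 0 fell, against 3.94% and 3.52% of all genes tested, with a list median of -0.08. Of 12 translation factors, 0 passed at either duration (medians 0.06 and -0.03). At an unadjusted edgeR p of 0.05, 3 were higher and 0 lower at 1 day, against 9.44% and 9.3% of all genes tested. The smallest adjusted p was that of the elongation factor Tufm at 1 day (0.38 ± 0.12, edgeR adjusted p = 0.0772). Of 20 genes of mitoribosome assembly and rRNA modification, 0 passed, with medians of -0.0048 and -0.01, and so did 0 of 9 genes of mitochondrial DNA transcription and upkeep (medians -0.0023 and -0.09).

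Of 13 mitochondrially encoded mRNAs, which the mitoribosome translates, 8 were in the count table, so the others are not covered here. These 8 were lower in value at 1 day, while most mitoribosome genes were higher. Among them mt-Nd3 was low, at 2.49 CPM or below in every library. All 8 mitochondrially encoded mRNAs measured were negative at 1 day, with a median of -0.39, and 7 of 8 at 20 days, with a median of -0.29, but 0 passed the threshold. Of the 15466 genes tested, 8035 were negative at 1 day and 7740 at 20 days. Without adjustment, 3 of the 8 mRNAs were lower at a p of 0.05 at 1 day and 1 at 20 days. For all genes tested these shares were 9.3% and 10.1%. The 8 mRNAs summed to 0.271 ± 0.0667% of counts after 1 day of IL-1β and 0.359 ± 0.0721% after PBS (SD, n = 3 each). At 20 days the sums were 0.307 ± 0.0451% with IL-1β and 0.346 ± 0.0217% with PBS (SD, n = 4 each). The mRNA with the smallest p at 1 day was mt-Co1, a core subunit of cytochrome c oxidase, with 588, 756 and 932 CPM in IL-1β libraries, against 1423, 1001 and 1064 CPM in PBS libraries (-0.63 ± 0.17, edgeR adjusted p = 0.0544). By naming set their median was -0.61 in E060216, where 3 of 8 fell, against 2.71% of all genes tested, and 0.06 in 10k. It was -0.02 in E061316 and -0.70 in the untagged set, where 3 of 8 fell, against 7.1% of all genes tested. In both tests of a difference between sets, edgeR called 0 of them.

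Among 12 regulators of mitochondrial gene expression, 1 fell at 1 day and 4 fell at 20 days, against 1.83% and 3.52% of all genes tested, and 0 rose, against 2.52% and 3.94%. The members of this list serve many pathways besides mitochondria. Mycn, a MYC family gene expressed in stem cells, had 237, 228 and 162 CPM with IL-1β, against 339, 366 and 200 CPM with PBS at 1 day (-0.50 ± 0.11, edgeR adjusted p = 0.0158). At 20 days Mycn had 169, 199, 110 and 132 CPM with IL-1β, against 381, 410, 321 and 291 CPM with PBS, without overlap (-1.22 ± 0.09, edgeR adjusted p = 5.52e-06). Myc, whose product drives ribosome production in many cell types, had 401, 464, 420 and 387 CPM with IL-1β, against 568, 529, 559 and 578 CPM with PBS at 20 days, also without overlap (-0.42 ± 0.08, edgeR adjusted p = 0.00414). At 1 day its value was -0.31 ± 0.09 (edgeR adjusted p = 0.0581). The other 2 that fell at 20 days were Pprc1, a PGC-1-related coactivator gene (-0.55 ± 0.12, edgeR adjusted p = 0.0109), and Atf4 (-0.33 ± 0.07, edgeR adjusted p = 0.0148). Nrf1 and the GABP subunit genes Gabpa and Gabpb1, whose products bind many promoters of nuclear genes for mitochondrial proteins, did not pass at either duration.

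Promoter windows from RefSeq (GRCm38.p6, 250 bases before and 50 after the annotated start) were searched for 4 motifs of such regulators on both strands. A window was matched for 67 of the 76 members. The NRF1 core TGCGCA was found in 20 (29.9%), against 14.2% of 10632 genes tested with a window and 8.06% of all 27025 genes with one. The GABP motif CCGGAAG was found in 23 (34.3%), against 17.5% and 9.12%. The YY1 motif AAGATGG was found in 13 (19.4%), against 7.19% and 6.48%. The MYC E-box CACGTG was found in 5 (7.46%), against 10.1% and 7.24%. At least 1 of the 4 was present in 43 members (64.2%), against 40.0% of genes tested and 26.2% of all genes with a window, and no pair of different motifs overlapped in a member. Members with and without the NRF1 core had medians of 0.15 and 0.24 at 1 day and -0.19 and -0.12 at 20 days, and those with and without the GABP motif 0.23 and 0.21 at 1 day and -0.09 and -0.14 at 20 days. In the untagged set, medians with and without each motif lay between -0.60 (5 members with an E-box) and -0.35 (23 with the GABP motif). A match is a description of letters in a window and not of binding.

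The windows of Mrps9 and Mrps10, the genes called at 1 day and at 20 days, of Mrps7, second in the test of the difference between durations, and of Mrps18a, which holds 3 of the motifs, are shown with motifs in capitals. That of Mrps9 has the NRF1 core at its first transcribed base, and that of Mrps10 has none of the 4 motifs. The Mrps10 window follows the RefSeq start and lies wholly inside the GENCODE gene given above, whose start is further upstream, so it does not cover the bases before that start. In Mrps7 the RefSeq start also lies downstream of the GENCODE start, and most of the window is inside that gene model. In Mrps7 the NRF1 core begins 62 bases before the start and the YY1 motif at base 19 after it. In Mrps18a the NRF1 core begins 42 bases before, the GABP motif 26 bases before, and the YY1 motif at base 12 after.
Mrps9 (chr1:42850983-42851282, plus strand): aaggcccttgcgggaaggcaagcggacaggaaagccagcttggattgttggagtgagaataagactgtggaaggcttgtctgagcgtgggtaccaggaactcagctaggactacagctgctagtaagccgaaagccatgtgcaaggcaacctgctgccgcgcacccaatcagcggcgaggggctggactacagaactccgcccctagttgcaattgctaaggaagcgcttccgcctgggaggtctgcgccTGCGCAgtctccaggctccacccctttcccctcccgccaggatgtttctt
Mrps10 (chr17:47368947-47369246, plus strand): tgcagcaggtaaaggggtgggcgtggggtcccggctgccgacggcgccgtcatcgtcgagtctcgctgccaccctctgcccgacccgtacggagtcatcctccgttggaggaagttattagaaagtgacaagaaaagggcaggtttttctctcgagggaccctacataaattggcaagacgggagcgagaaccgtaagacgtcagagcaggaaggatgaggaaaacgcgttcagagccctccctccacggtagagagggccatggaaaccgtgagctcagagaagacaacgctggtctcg
Mrps7 (chr11:115603890-115604189, plus strand): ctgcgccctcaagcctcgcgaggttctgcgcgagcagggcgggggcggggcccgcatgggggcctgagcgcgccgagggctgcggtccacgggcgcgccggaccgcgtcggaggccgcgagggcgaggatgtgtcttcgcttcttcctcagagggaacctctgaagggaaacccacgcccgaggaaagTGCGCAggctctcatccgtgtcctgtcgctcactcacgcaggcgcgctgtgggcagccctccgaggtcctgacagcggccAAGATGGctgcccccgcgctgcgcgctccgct
Mrps18a (chr17:46110754-46111053, plus strand): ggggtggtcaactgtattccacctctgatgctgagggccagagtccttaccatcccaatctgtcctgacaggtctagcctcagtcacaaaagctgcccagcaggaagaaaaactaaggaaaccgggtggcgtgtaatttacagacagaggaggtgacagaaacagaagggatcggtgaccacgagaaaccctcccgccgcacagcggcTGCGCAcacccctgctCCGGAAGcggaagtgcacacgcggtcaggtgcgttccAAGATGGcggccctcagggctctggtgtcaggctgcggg

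The members lie on 17 chromosomes, with the most, 10, on chromosome 11 and 8 on chromosome 17. Of the 76, 18 (23.7%) have the start of a protein-coding gene model on the opposite strand within the 1000 bases upstream of their own. The share was 10.7% of all genes tested with a gene model. Genes that overlap head to head are not in this count. Mrpl46 and Mrps11, of different subunits, overlap each other head to head, so that their reads near the start cannot be told apart. Some sequence is shared with pseudogenes, such as those of Mrpl23, Mrps36 and Mrpl48, whose counts are uncertain to that extent.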

How the data were processed

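RNA of 14 libraries was analysed. The authors deposited raw read counts, 1 row for each gene symbol. The submitters' processing notes list DESeq2 1.12.3, Cufflinks 2.0.2 with Cuffdiff, HTSeq 0.6.1, STAR 2.4.2a and Trimmomatic 0.32, without their roles, and the build GRCm38.p4. The sources used here do not state the annotation or the strand setting. Per the labels' protocols, cDNA was amplified by SMARTer chemistry, which does not mark strand, and read from a single end over 100 nt.

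The test was the robust quasi-likelihood test of edgeR 4.0.16 (R 4.3.3), two-sided, on counts with TMM factors after filterByExpr with a minimum count of 10. Its p-values were adjusted by the Benjamini-Hochberg method over 15466 genes and called at 0.05. All 14 libraries entered a fit with a naming set term and an IL-1β effect per duration (8 residual degrees of freedom). Effects within sets and their differences came from a fit of 8 means (6 residual degrees of freedom), which assumes that a lone 10k library varies like the others. The SE given after ± was taken from F as the size of the log2 fold change over the root of F. Single CPM values are scaled by TMM factors; summed shares and marker sums use library totals. Scripts were tested on simulated data. Lengths, GC and overlaps came from GENCODE M21 (principal transcript), and promoter windows from RefSeq.

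Libraries are biological replicates, per the series' design text. Libraries of a group differed well beyond sampling noise (chi-square of 11.2 to 81.4 per degree of freedom for the pairs), and none was treated as a duplicate. Replicate numbers did not pair libraries by the check used. Alternatives were RLE and upper-quartile factors, no filter, DESeq2 1.42.0, no naming set term, a replicate block, other denominators and leaving out each library. Removing length or GC trends and leaving out 3 libraries rich in short transcripts were chosen after the data were seen.

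Members and lists were chosen with earlier results of these data known. Genes were named by rule: members called at each duration, up to 8 a direction, and 3 by smallest p in a direction without a call; the 4 with the smallest p in each test of a difference; the 3 highest and 3 lowest per kilobase; and Mrpl12, Mrps12, Mrps30, Mrps18a, Mrps36, Ict1, Dap3, Mrpl33 and Mrpl41. From other lists, up to 2 called genes per direction or the 1 with the smallest p were taken, with Myc and Mycn always. Mrps22, Mrps28, Mrps18b, Mrpl23 and Chchd1, and members named for position, were chosen after their values were seen. Some items are not reported here.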

Additional observations from a re-analysis of the deposited data

Results flagged for a closer look

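In the 20-day PBS group, replicate 4 stood far from the other 3 libraries for 5 of the named genes, by the ratio of its gap to the group's range (Dixon's test at its 95% critical value). It was high for Mrps7, at 114 CPM against 89.2 to 92.4 in the other libraries, for Mrpl19, at 75.3 against 64.1 to 66.0, for Mrpl18, at 119 against 82.7 to 83.9, and for Mrps12, at 84.9 against 59.9 to 61.9. For Mrpl50 it was low, at 63.6 CPM against 71.9 to 72.5. Over all 76 members the same ratio passed in 11 for the 20-day PBS group and in 1 for the 20-day IL-1β group. Chance alone passes about 1 group in 20 for a single gene. The members share the same libraries, and 74 of the 76 were higher in PBS replicate 4 than the mean of replicates 1 to 3. Their ratios are therefore not independent, and the counts of 11 and 1 cannot be set against that rate. Mrps7, Mrpl19 and Mrpl18 were also named through tests that include this library. The part of this library's transcript length profile in these values was not tested.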

How the results depend on the processing

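Under RLE factors and other denominators of the summed share, every value kept its direction and its side of the threshold. The count of members called higher at 1 day was 0 with upper-quartile factors, without a filter on low counts, without the naming set term and with the replicate block, 2 with the length trend removed and 2 without the 3 libraries richest in short transcripts, and 3 with DESeq2. Of members called lower at 20 days there were 2 with the length trend removed and 3 with DESeq2. The difference between durations gave 4 lower with DESeq2, 4 with the length trend removed, 1 with the GC trend removed and 1 without the 3 libraries. Within E060216, 0 rose with upper-quartile factors, 3 without a filter, 10 with DESeq2, 5 with the length trend removed, 3 with the GC trend removed and 12 without the 3 libraries. Within E061316, 1 fell with the length trend removed, and within the untagged set 2 fell without the 3 libraries. The untagged minus E061316 contrast gave 8 lower without a filter, 23 with DESeq2 and 3 with the GC trend removed, and its median was -0.31 with the length trend removed. The cause of these shifts was not tested. Shares of all genes tested that were called under these settings are not given here.

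Single genes reversed as follows. Mrps23 at 1 day was -0.0344 with upper-quartile factors, -0.00105 without a filter, -0.00829 without the naming set term and -0.0193 with the length trend removed. Mrpl33 at 20 days was -0.00462 with upper-quartile factors, -0.00235 without the naming set term and -0.0265 with the GC trend removed. Without the 3 libraries, Mrps2 at 1 day was 0.16, and at 20 days Mrpl18 was 0.12, Mrps12 0.00175, Mrps30 0.0457, Mrps36 0.0260, Mrpl41 0.0329 and Ict1 0.0608.

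Leaving out each library in turn, the count called was 0 to 6 higher at 1 day (6 without 20-day PBS replicate 4), 1 to 3 lower at 20 days (3 without 20-day IL-1β replicate 2), 0 to 1 lower for the difference between durations, 0 to 17 higher within E060216 (17 without 20-day PBS replicate 4 and 16 without replicate 3 of that group), 0 to 1 higher within E061316, 0 to 47 lower within the untagged set (47 without 20-day PBS replicate 3, and 4, 5 and 0 without 20-day PBS replicate 4, IL-1β replicate 3 and IL-1β replicate 4) and 0 to 39 lower for untagged minus E061316 (39 without 20-day PBS replicate 3). Values that changed sign ranged at 1 day from -0.23 to 0.17 for Mrps2, -0.0798 to 0.0247 for Mrps35, -0.0517 to 0.0304 for Mrpl9 and -0.0925 to 0.15 for Mrps23. At 20 days they ranged from -0.19 to 0.11 for Mrpl18, -0.0826 to 0.0375 for Mrps30, -0.16 to 0.0173 for Mrps36, -0.0365 to 0.10 for Mrpl33, -0.28 to 0.0240 for Mrpl41 and -0.13 to 0.0524 for Ict1. Omissions of a 10k library left no contrast of E060216 minus 10k. For these counts too, the shares of all genes tested that were called are not given here.

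Libraries with the same replicate number correlated in their deviations from the group mean at -0.03, 0.12 and 0.18 at 1 day and 0.02, 0.27, 0.11 and 0.06 at 20 days, and not every library correlated best with its own number, so the numbers were not taken as pairs. With the replicate block, 0 members were called higher at 1 day and 1 lower at 20 days, with medians of 0.21 and -0.14. Low depth limits Mrps36 and Mrpl23 most, and with 1 to 4 libraries per arm small shifts of single genes were not detectable.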
